A study of Mus musculus with 9 samples.

Results

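The 32 genes described here encode the enzymes that build cholesterol and fatty acids, together with the proteins that switch those enzymes on and off. They were listed by name from the known pathways, no measured value entered the rule, and all 32 were found among the 23420 genes counted. All 32 also passed the filter on low counts, which kept 15635 genes. By role they comprised 8 genes of the steps from acetyl-CoA to squalene, 8 of the steps from squalene to cholesterol, 6 of sterol sensing and transport, 4 of fatty acid synthesis and 6 of desaturation and elongation. Earlier results from these libraries were known when the list was drawn up.

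As background, cells make cholesterol from acetyl-CoA through mevalonate and squalene, and they make palmitate from the same acetyl-CoA through malonyl-CoA. Both routes answer to the sterol regulatory element binding proteins, SREBP1 and SREBP2, encoded by Srebf1 and Srebf2. When membranes of the endoplasmic reticulum are poor in sterol, SCAP carries these proteins to the Golgi, where they are cut and released to the nucleus. When sterol is plentiful, INSIG1 and INSIG2 hold SCAP back, so that less of the enzymes' RNA is made. Oxysterol-sensing liver X receptors act in the other direction on efflux genes and also raise Srebf1. In skin, sebaceous glands and the epidermis are known for intense lipid synthesis.

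The cells were mesenchymal cells of C57BL/6 mice, aged 3 to 4 weeks, with no treatment named. They came from the thymus, from bone (femur, tibia and pelvis) and from skin, with 3 libraries per tissue. The sort kept cells with SCA1 on their surface that lacked lineage antigens of blood, endothelial and epithelial cells (CD45, CD31, EpCAM, CD41, TER119, B220, GR-1, CD11b, CD4 and CD2), and every sample held at least 25000 cells. Thymus and bone were digested with Liberase and DNase I, and bone fragments were also crushed and freed of red cells, whereas how skin was digested is not stated in the labels. The thymus libraries are labelled 2, 3 and 1-3, and the labels do not say whether 1-3 is a pool that shares material with the others. Separate mice are not stated either, so p-values reflect spread among these 9 samples alone, which may be technical. Values per library are given below in the order thymus 2, 3 and 1-3, bone 1, 2 and 3, and skin 1, 2 and 3. Levels are in CPM, a gene's reads relative to all gene reads of its library after scaling by TMM factors, differences are log2 ratios from edgeR's quasi-likelihood test over all 9 libraries, and a gene was called at a Benjamini-Hochberg adjusted p under 0.05. In bulk RNA, fewer cells of a type and less RNA per cell cannot be told apart.

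Gene reads per library ran from 78757872 to 116759235. The TMM factors were 0.701 to 0.770 in skin against 1.10 to 1.23 in thymus and bone. Scaling by library size alone shifted the median of all genes by 0.63 (log2) towards higher levels in thymus than in skin and by 0.69 towards higher levels in bone than in skin, so directions against skin are read relative to the other genes. Mesenchymal markers, collagens among them, were the most abundant of the marker lists in each tissue, at 52670 to 55771 CPM summed in thymus and 67566 to 68350 in bone, against 334427 to 370984 in skin. The summed adipocyte markers came to 15.1 to 18.03 CPM in thymus and 20.1 to 46.1 in bone, against 27.1 to 32.8 in skin, and Lep had 0 reads in every library. Myeloid markers were highest in bone, where 12 of them summed to 3023 to 4159 CPM against 17.6 to 50.3 in thymus and 41.97 to 98.6 in skin, and 10 thymocyte markers had sums of 0.117 to 0.819 CPM in skin, 29.6 to 38.6 for bone and 67.4 to 191 for thymus. The part of either list in the results was not tested.

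Skin had the highest mean level for 23 of the 32 genes and thymus the lowest for 21, whereas skin was highest for 35.3% and thymus lowest for 27.0% of all genes tested. This order depends on the scaling: differences below 0 numbered 28 of 32 in thymus minus skin and 25 in bone minus skin with TMM, but 20 and 13 with library size only. In thymus against skin, 20 of the 32 genes were lower and 2 higher in thymus, set beside 18.3% and 19.3% of all genes. In bone against skin, 16 were lower and 3 higher in bone, where 23.4% and 23.7% of all genes were. In thymus against bone, 10 were lower and 7 higher in thymus, beside 16.1% and 16.5%. The median difference of the 32 genes was -0.86 for thymus minus skin, -0.55 for bone minus skin and -0.29 for thymus minus bone, and the medians of all genes were 0.03, 0.03 and 0.02. These comparisons share libraries, so they are not independent of each other. The order skin above bone above thymus held for the means of 16 of the 32 genes and for 13.1% of all genes.

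Which genes passed against skin depended on the scaling. With library size only, thymus against skin gave 5 higher and 9 lower and bone against skin 6 higher and 5 lower, while all genes moved from 3013 higher and 2865 lower to 7219 and 1239 in thymus against skin. Relative to the median of all genes, the median of the 32 genes was -0.89 in thymus minus skin and -0.59 in bone minus skin under TMM, and -0.88 and -0.59 with library size only. A scaling factor moves all genes of a library alike, so these medians had to agree and are no check on the scaling. Thymus against bone had 7 higher and 10 lower with TMM and with library size only. The calls lost in thymus against skin were Lss, Hsd17b7, Ebp, Mvd, Mvk, Srebf2, Fasn, Acaca, Acly, Scd2 and Fads1. Those lost in bone against skin were Fdps, Fdft1, Cyp51, Dhcr7, Nsdhl, Mvd, Srebf1, Srebf2, Fasn, Acly and Elovl5. Calls gained were Srebf1, Scap and Scd1, higher in thymus than in skin, and Hsd17b7, Insig1 and Scap, higher in bone than in skin.

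**Figure D1:**
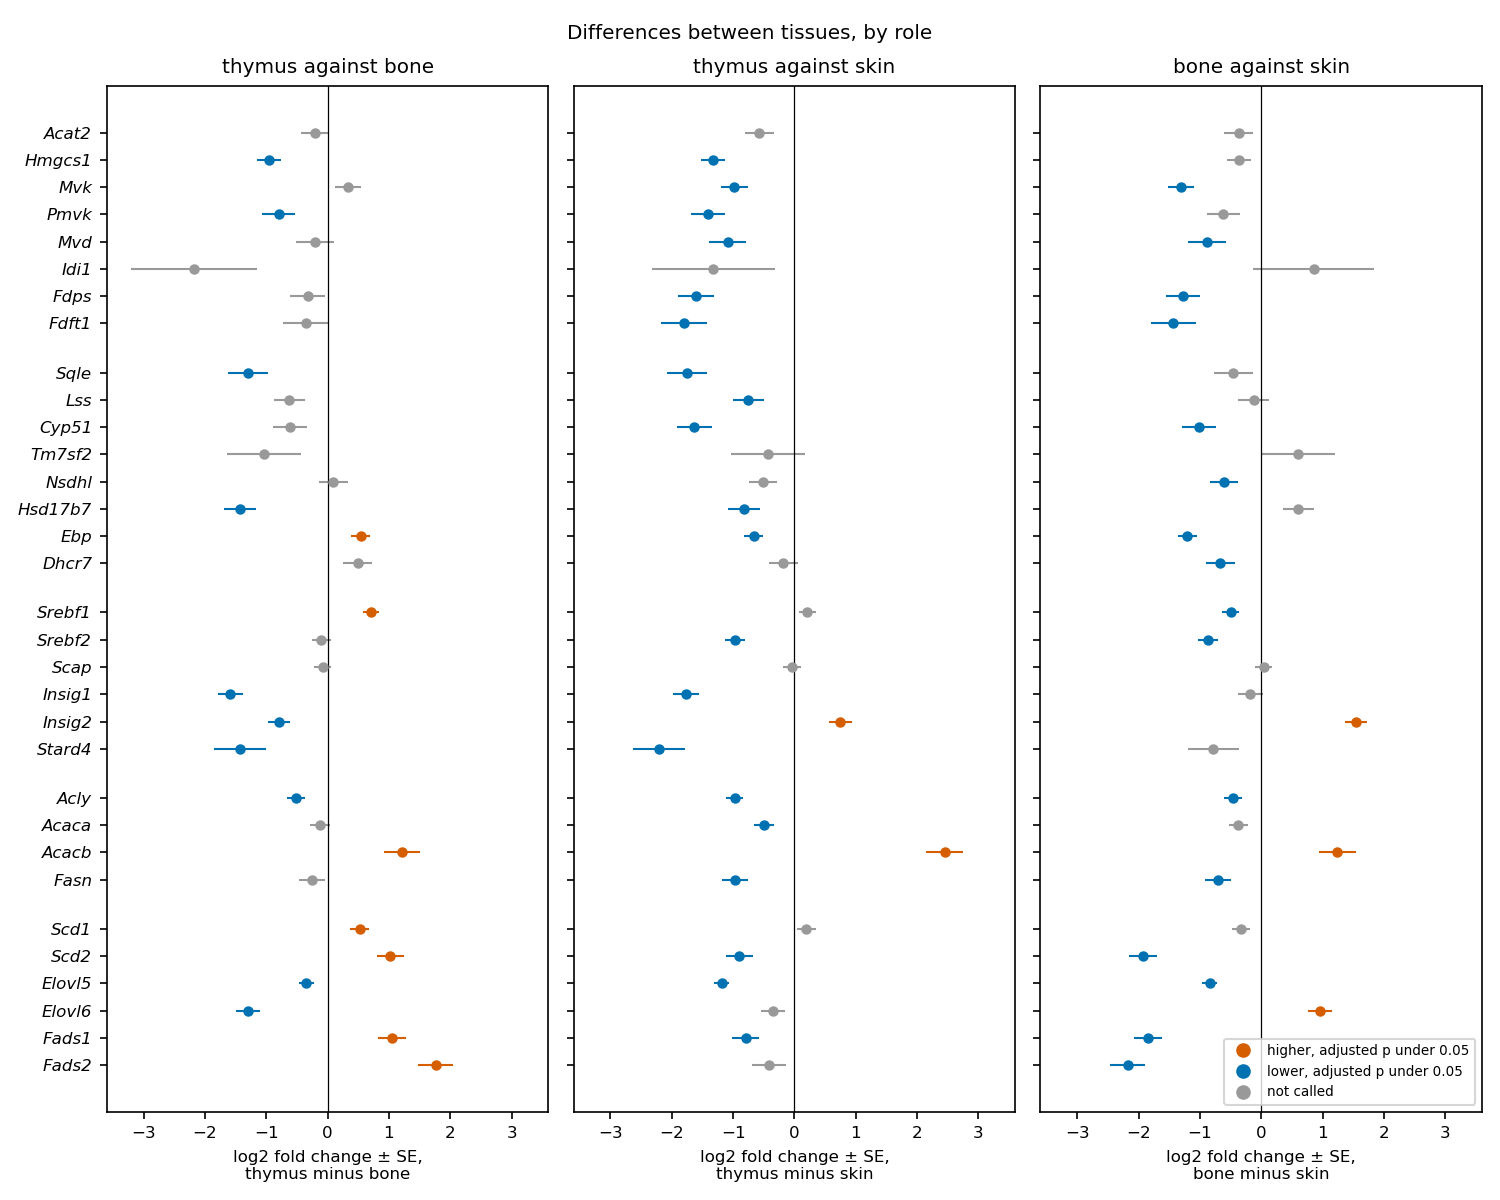
Log2 fold change of each of the 32 genes (points, with the SE as bars) for thymus minus bone, thymus minus skin and bone minus skin, grouped by role from cholesterol steps at the top to desaturation and elongation at the bottom. Coloured points passed an adjusted p of 0.05: in thymus against skin 20 lie left of 0 and 2 to the right, and with library size only these become 9 and 5.

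Of the 32 genes, 25 have an entry in the RefSeq promoter table for GRCm38.p6, and the search covered 250 bases before to 50 after each listed start on both strands. Sqle, Fdps, Fdft1, Stard4, Scd1, Scd2 and Fads1 have no entry and were not searched. All of these but Scd1 were at least 2-fold higher or lower in 1 tissue than in both others. The search was for the sterol regulatory element of SREBP targets (TCACNCCAC), the CCAAT box bound by NF-Y (CCAAT), the E-box (CACGTG) and the GC box bound by SP1 (GGGCGG). The CCAAT box was found in 20 of 25 of these genes (80.0%) and in 41.1% of the 27025 genes with a promoter. The GC box was found in 19 (76.0%, against 38.2%), the E-box in 5 (20.0%, against 8.09%) and the sterol regulatory element in 1 (4.0%, against 1.44%), which was Hmgcs1. The 27025 genes were not restricted to the 15635 that passed the filter on low counts, as all 32 genes did. A gene with several listed starts counted if any start matched. The shares are therefore not set against genes expressed in these cells. A match describes these letters in this window and is not a measured binding site. The 250 bases before the start are shown for 4 genes that the tissues separate in different ways: Hmgcs1 and Insig1, lowest in thymus, Insig2, lowest in skin, and Acacb, highest in thymus. Capitals mark the sterol regulatory element, CCAAT box or E-box on either strand (ATTGG is the CCAAT box read on the other strand).
Hmgcs1, chr13:119690101-119690350, plus strand: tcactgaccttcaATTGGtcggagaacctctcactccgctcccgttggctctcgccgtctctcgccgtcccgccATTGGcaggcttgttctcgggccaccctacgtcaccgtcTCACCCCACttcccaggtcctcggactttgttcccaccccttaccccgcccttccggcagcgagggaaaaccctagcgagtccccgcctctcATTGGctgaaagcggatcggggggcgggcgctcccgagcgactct
Insig1, chr5:28071162-28071411, plus strand: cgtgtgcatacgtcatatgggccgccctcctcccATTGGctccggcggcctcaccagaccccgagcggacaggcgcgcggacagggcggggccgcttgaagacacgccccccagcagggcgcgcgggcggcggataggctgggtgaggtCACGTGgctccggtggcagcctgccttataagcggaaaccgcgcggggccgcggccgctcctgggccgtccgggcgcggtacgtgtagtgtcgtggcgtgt
Insig2, chr1:121332590-121332839, minus strand: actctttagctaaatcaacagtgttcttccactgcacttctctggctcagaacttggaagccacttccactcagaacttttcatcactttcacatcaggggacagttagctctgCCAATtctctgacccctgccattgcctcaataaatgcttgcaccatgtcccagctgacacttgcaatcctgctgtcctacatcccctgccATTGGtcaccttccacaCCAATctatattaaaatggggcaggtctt
Acacb, chr5:114165268-114165517, plus strand: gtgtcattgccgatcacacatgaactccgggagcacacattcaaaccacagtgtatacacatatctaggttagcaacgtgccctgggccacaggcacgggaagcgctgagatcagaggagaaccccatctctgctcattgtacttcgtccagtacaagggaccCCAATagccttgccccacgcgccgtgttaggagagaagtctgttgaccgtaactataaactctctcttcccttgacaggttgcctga
The Hmgcs1 window carries the sterol regulatory element at bases -137 to -129 from the start and 3 CCAAT boxes, the nearest at -45 to -41. The Insig1 window has an E-box and 1 CCAAT box, the Insig2 window 3 CCAAT boxes, and the Acacb window 1 CCAAT box. GC boxes, which are not in capitals, begin at -229, -167 and -126 in the Insig1 window and at -92 and -24 in the Hmgcs1 window. The Insig2 and Acacb windows shown have none. Insig2 has 3 listed starts, of which the first listed is shown.

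The steps from acetyl-CoA to squalene were lowest in thymus and highest in skin for most of their 8 genes: 6 were lower in thymus than in skin, 4 were lower in bone than in skin and 2 were lower in thymus than in bone, with none higher in any of these comparisons. The shares of all genes called lower were 18.3%, 23.4% and 16.1% in the same order. Across the 16 cholesterol steps as a whole, 11 were lower in thymus than in skin and none higher, and all 16 differences were below 0. Under library size scaling, 6 of the 16 were lower in thymus than in skin, none was higher, and 12 differences were below 0.

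Hmgcs1, which joins acetoacetyl-CoA and acetyl-CoA to HMG-CoA, read 40.4, 40.1 and 44.98 CPM in thymus and 91.4, 65.2 and 87.2 in bone, against 95.6, 139 and 80.1 in skin. Every thymus library lay below every bone and skin library, and bone and skin overlapped. Hmgcs1 was 1.94-fold lower in thymus than in bone, a log2 difference of -0.96 ± 0.20 (SE) with adjusted p = 0.00297, and 2.51-fold lower than in skin, a log2 difference of -1.33 ± 0.20 (SE) with adjusted p = 0.000276. Bone and skin differed by -0.37 ± 0.20 (SE), which did not pass (adjusted p = 0.144).

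Of the 3 enzymes that phosphorylate and decarboxylate mevalonate, the mevalonate kinase gene Mvk read 12.7, 9.38 and 12.6 CPM in thymus and 8.09, 9.901 and 9.57 in bone, against 24.1, 27.3 and 16.9 in skin. Skin lay above both other tissues without overlap, while thymus and bone overlapped. Mvk was 2.48-fold lower in bone than in skin (-1.31 ± 0.22 (SE), adjusted p = 0.000439) and 1.97-fold lower in thymus than in skin (-0.98 ± 0.22 (SE), adjusted p = 0.00375). The latter was -0.35 with library size only (adjusted p = 0.199). Pmvk, the phosphomevalonate kinase gene, read 5.03, 3.45 and 5.77 CPM in thymus and 9.21, 6.404 and 9.18 in bone, against 15.6, 12.6 and 9.83 in skin. Its thymus libraries were below all others, and it was 2.66-fold lower in thymus than in skin (-1.41 ± 0.28 (SE), adjusted p = 0.00176). The smaller difference from bone, -0.80 ± 0.27 (SE) with adjusted p = 0.0433, was lost on leaving out any of bone 1, bone 3, skin 1, skin 2, thymus 2 or thymus 3 (adjusted p = 0.0516 to 0.147). Mvd, the diphosphomevalonate decarboxylase gene, was at 3.17 to 6.01 CPM in thymus and 4.09 to 6.997 in bone, against 9.17 to 11.8 in skin, and was called lower in thymus (log2 -1.09, adjusted p = 0.0147) and in bone (log2 -0.88, adjusted p = 0.0319) than in skin. The former was lost without skin 2 or thymus 2 (adjusted p = 0.0663 and 0.0566), the latter without bone 1, bone 2, skin 1 or skin 2 (adjusted p = 0.0575 to 0.118). With library size only these differences were -0.45 and -0.20 (adjusted p = 0.224 and 0.603).

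Fdps and Fdft1 stood apart in skin. Fdps makes farnesyl diphosphate, the branch point to sterols and prenylated proteins, and it read 9.16, 8.97 and 12.2 CPM in thymus and 10.01, 15.99 and 12.1 in bone, against 34.4, 39.8 and 18.1 in skin. Fdft1, squalene synthase, is the entry into the sterol branch and read 4.96, 6.86 and 12.4 CPM in thymus and 7.23, 12.1 and 11.7 in bone, against 27.1, 38.6 and 18.4 in skin. For both genes all skin libraries were above all others, and thymus and bone overlapped. Fdps was 3.04-fold lower in thymus (-1.60 ± 0.29 (SE), adjusted p = 0.000982) and 2.42-fold lower in bone (-1.28 ± 0.28 (SE), adjusted p = 0.00319) than in skin. Fdft1 was 3.47-fold lower in thymus (-1.79 ± 0.37 (SE), adjusted p = 0.00321) and 2.704-fold lower in bone (-1.44 ± 0.37 (SE), adjusted p = 0.00852). Scaled by library size alone, both kept an adjusted p under 0.05 against thymus but not against bone (adjusted p = 0.101 for Fdps and 0.0966 for Fdft1). Other genes hold 6.8% of the 99-base windows of the Fdps transcript and 2.89% of those of Fdft1.

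The remaining genes of this stretch were not called or were poorly measured. Acat2, a thiolase at the entry, was at 5.13 to 7.07 CPM in thymus and 6.38 to 7.35 in bone, against 7.68 to 9.48 in skin and was not called in any comparison. Its level is uncertain because 35.5% of the 99-base windows of its transcript also occur in Acat3. Idi1, the isomerase that makes dimethylallyl diphosphate, held 2, 54 and 90 reads in thymus and 249, 141 and 231 in bone, against 121, 78 and 76 in skin, the fewest of all 32 genes, and 20.0% of its windows occur in other genes. It was not called, and its thymus libraries differed among themselves from 0.0168 to 0.882 CPM.

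**Figure D2:**
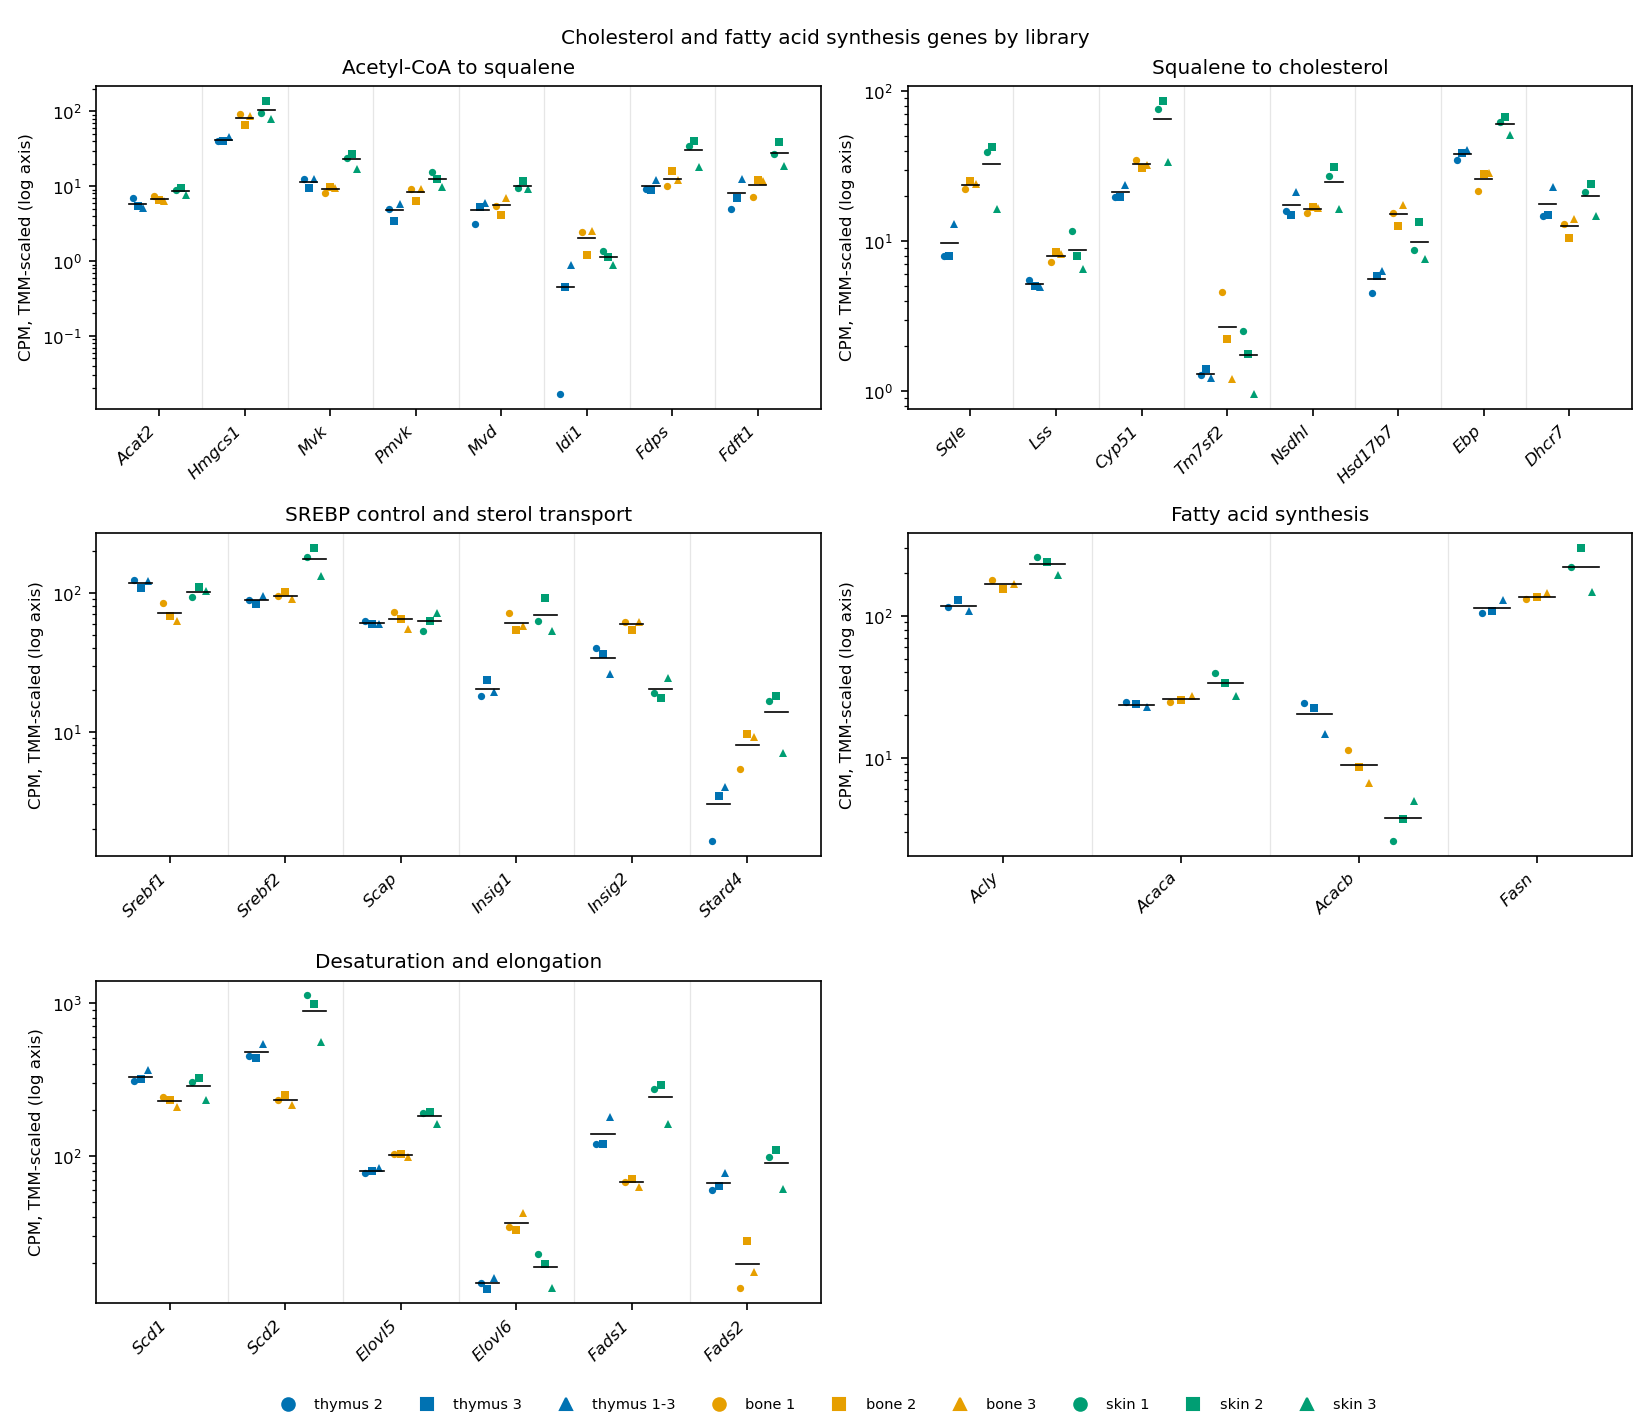
TMM-scaled CPM (log axis) of the 32 genes in the 9 libraries, in 5 panels by role. Colours are tissues, symbols are libraries and black lines are tissue means. Hmgcs1, Pmvk, Sqle, Lss, Cyp51, Hsd17b7, Insig1, Stard4, Acly, Fasn and Elovl5 show all thymus points below all bone and skin points. Acacb shows the reverse.

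Of the 8 genes for the steps from squalene to cholesterol, 5 were lower in thymus than in skin and 4 lower in bone than in skin. In thymus against bone 2 were lower in thymus and 1, Ebp, was higher. Of all genes, 18.3%, 23.4% and 16.1% were lower in these comparisons, in that order, and 16.5% were higher in thymus against bone. Sqle, squalene epoxidase and a rate-limiting step, read 7.95, 7.97 and 13.1 CPM in thymus and 22.3, 25.1 and 24.02 in bone, against 39.1, 42.3 and 16.4 in skin. The thymus libraries were the 3 lowest, and the bone libraries lay between skin 3 and the other skin libraries. Sqle was 2.46-fold lower in thymus than in bone (-1.30 ± 0.33 (SE), adjusted p = 0.0107) and 3.37-fold lower than in skin (-1.75 ± 0.33 (SE), adjusted p = 0.00166), 1 of 3 genes at least 2-fold lower in thymus than in both others, where 3.83% of all genes were. The other genes in that class were Insig1 and Stard4.

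Cyp51, lanosterol 14-demethylase, read 19.7, 19.8 and 23.8 CPM in thymus and 34.5, 30.7 and 31.98 in bone, against 76.3, 86.3 and 33.8 in skin. Thymus lay below both other tissues, and skin 3 fell among the bone libraries. It was 3.101-fold lower in thymus than in skin (-1.63 ± 0.28 (SE), adjusted p = 0.000967) and 2.02-fold lower in bone than in skin (-1.01 ± 0.28 (SE), adjusted p = 0.0115), although its bone call was lost with library size only (adjusted p = 0.318). With Fdps and Fdft1 it made up the 3 genes at least 2-fold higher in skin than in both others, a class of 5% of all genes. Without skin 3 that class held 8 of the 32 genes, without thymus 1-3 it held 6, and with library size only it held none.

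Hsd17b7, a 3-ketosteroid reductase of sterol synthesis, was highest in bone, with 4.48, 5.88 and 6.36 CPM in thymus and 15.3, 12.5 and 17.3 in bone, against 8.74, 13.4 and 7.58 in skin. Thymus was below both others and bone and skin overlapped. Hsd17b7 was 2.700-fold lower in thymus than in bone (-1.43 ± 0.26 (SE), adjusted p = 0.0013). Its smaller difference from skin (-0.83 ± 0.26 (SE), adjusted p = 0.0246) was lost without skin 2, thymus 2 or thymus 3 (adjusted p = 0.0546 to 0.143), and was -0.55 without skin 2. With library size only that difference was -0.19 (adjusted p = 0.547). Ebp, the sterol delta8-delta7 isomerase gene, was lowest in bone, reading 34.5, 38.6 and 40.4 CPM in thymus and 21.4, 28.1 and 28.5 in bone, against 62.2, 66.9 and 51.05 in skin. The 3 tissues did not overlap. Ebp was 2.31-fold lower in bone than in skin (-1.21 ± 0.16 (SE), adjusted p = 7.47e-05), 1.59-fold lower in thymus than in skin (-0.67 ± 0.16 (SE), adjusted p = 0.0053), and 1.46-fold higher in thymus than in bone (0.54 ± 0.16 (SE), adjusted p = 0.0196). The last was lost without bone 1, thymus 3 or thymus 1-3 (adjusted p = 0.0523 to 0.0726) and with library sizes lacking 3 collagens (0.0566). The Ebp difference between thymus and skin was -0.03 with library size only (adjusted p = 0.877). It was -0.37 with library sizes lacking 3 collagens (adjusted p = 0.0886).

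Lss, which cyclises oxidosqualene to lanosterol, had a mean of 5.17 ± 0.311 CPM in thymus and 7.98 ± 0.652 in bone, against 8.69 ± 2.61 in skin (SD, n = 3) and was called lower in thymus than in skin (log2 -0.75, adjusted p = 0.0377). That call was lost on leaving out any of bone 3, skin 1, skin 2 or a thymus library (adjusted p = 0.0538 to 0.208), and without skin 1 the difference was -0.48. With library size only it was -0.13 (adjusted p = 0.720). Nsdhl, a sterol dehydrogenase of C4 demethylation, ranged over 14.9 to 21.4 CPM in thymus and 15.5 to 16.7 in bone, against 16.4 to 31.1 in skin. Dhcr7, which makes cholesterol from 7-dehydrocholesterol, ranged over 14.8 to 22.9, 10.4 to 14.1 and 14.6 to 23.9 CPM in the same order. Both were called lower in bone than in skin (Nsdhl log2 -0.61, adjusted p = 0.0467, and Dhcr7 log2 -0.67, adjusted p = 0.0359), and both were 0.08 and 0.02 higher in bone with library size only. Without bone 1, bone 2, skin 1 or skin 2 each lost its call (adjusted p = 0.0648 to 0.148 for Dhcr7), and Nsdhl also without bone 3, thymus 2 or thymus 3 (adjusted p = 0.0534 to 0.207 over the 7). Tm7sf2, a sterol C14 reductase, was at 1.22 to 1.397 CPM in thymus and 1.204 to 4.56 in bone, against 0.957 to 2.53 in skin and was not called.

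Skin 3 differed from the other skin libraries in this pathway. It was the lowest skin library for 28 of the 32 genes and for 16 of the 16 cholesterol steps, while it was lowest for 34.2% of all genes. Its median ratio to the mean of the other skin libraries was 0.681 over the 32 genes, 0.665 over the cholesterol steps and 1.01 over all genes. Skin 3 also had the highest summed keratinocyte markers (257 CPM against 84.5 and 93.2 in skin 1 and 2). Its summed markers of cycling cells were the lowest (106 against 372 and 248). Among the skin libraries it was highest for sebocyte markers too (256 CPM against 204 and 227) and for endothelial ones (348 against 251 and 285). The same held for myeloid, B cell and thymocyte markers and for the immediate-early and heat shock genes. The mesenchymal sum was lowest in skin 3, and the adipocyte, preadipocyte and Schwann cell sums lay between those of skin 1 and skin 2. The part of these lists in these levels was not tested. Without skin 3, 22 of the 32 genes were lower in bone than in skin and 22 lower in thymus than in skin, with 3 and 2 higher. Thymus 1-3 was the highest thymus library for 21 of the 32 genes and for 36.3% of all genes.

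**Figure D3:**
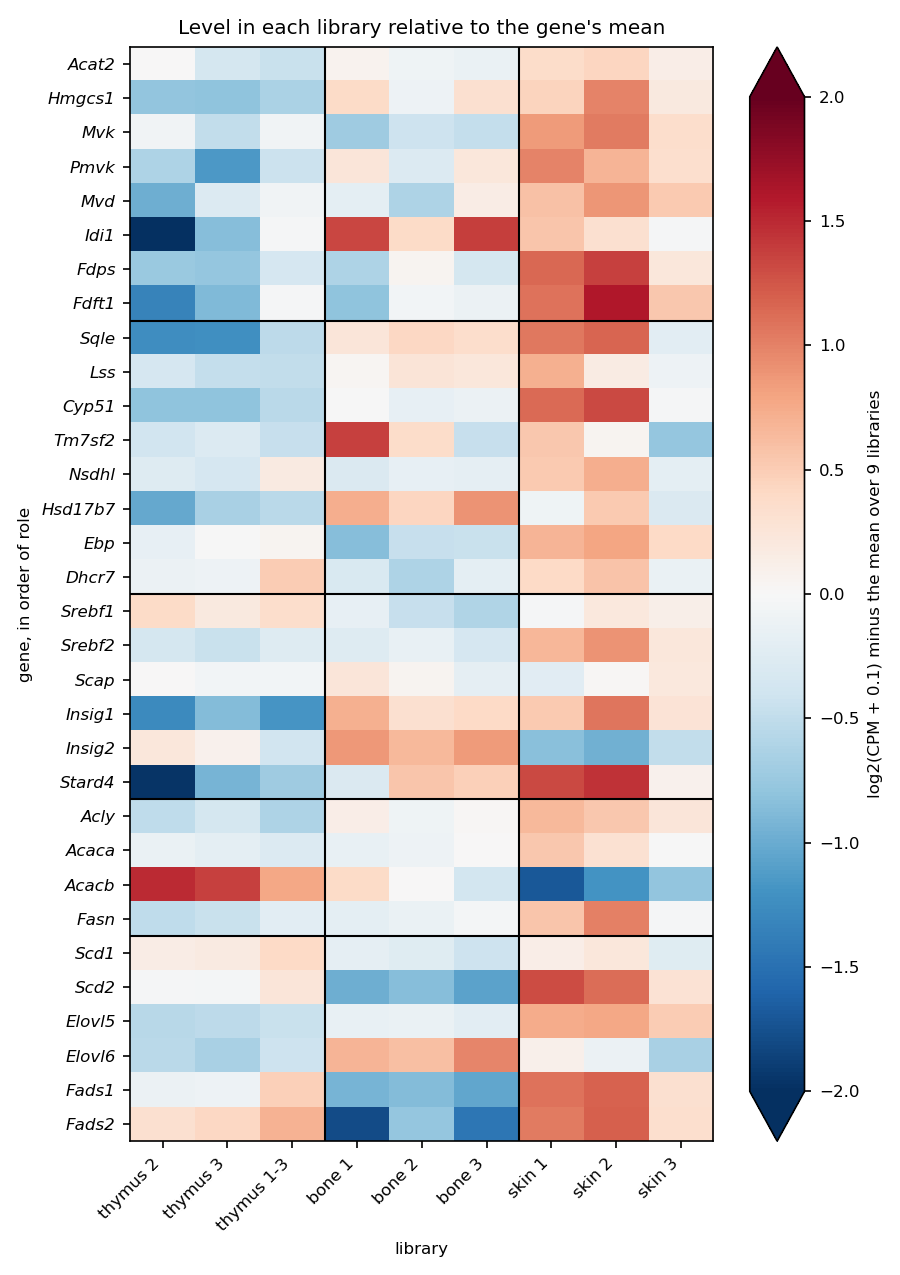
Log2(CPM + 0.1) of each of the 32 genes minus its mean over the 9 libraries, with libraries in columns and genes in rows ordered by role, and with values beyond 2 in either direction drawn at the end of the scale. Skin 1 and skin 2 are red over most of the cholesterol steps, skin 3 is the lowest of the skin columns in all 16, and the thymus columns are mostly blue.

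The sterol sensors did not move as 1 group. Insig1 and Stard4 were lowest in thymus, Insig2 was highest in bone and lowest in skin, Srebf2 was highest in skin, Srebf1 was lowest in bone, and Scap was called in none of the comparisons. Insig1, itself a classic SREBP target, read 18.04, 23.8 and 19.3 CPM in thymus and 71.7, 54.3 and 57.6 in bone, against 63.05, 91.8 and 53.00 in skin. Thymus was clear of both other tissues, which overlapped. Insig1 was 3.002-fold lower in thymus than in bone (-1.59 ± 0.21 (SE), adjusted p = 0.000116) and 3.398-fold lower than in skin (-1.76 ± 0.21 (SE), adjusted p = 4.41e-05).

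Insig2 followed another order, with 40.2, 36.2 and 26.2 CPM in thymus and 62.3, 53.96 and 61.7 in bone, against 19.1, 17.6 and 24.2 in skin. The 3 tissues did not overlap. Insig2 was 2.92-fold higher in bone than in skin (1.54 ± 0.18 (SE), adjusted p = 3.73e-05), 1.68-fold higher in thymus than in skin (0.75 ± 0.18 (SE), adjusted p = 0.00621) and 1.73-fold lower in thymus than in bone (-0.79 ± 0.18 (SE), adjusted p = 0.00524). Stard4, a soluble sterol carrier, read 1.63, 3.42 and 3.98 CPM in thymus and 5.39, 9.705 and 9.21 in bone, against 16.6, 18.1 and 7.02 in skin. Its thymus libraries were the 3 lowest, and skin 3 lay within the bone range. Stard4 was 4.62-fold lower in thymus than in skin (-2.21 ± 0.43 (SE), adjusted p = 0.00181) and 2.69-fold lower than in bone (-1.43 ± 0.42 (SE), adjusted p = 0.0227), the latter lost without bone 2, bone 3 or thymus 2 (adjusted p = 0.0660 to 0.0716).

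Srebf1 read 123, 109 and 121 CPM in thymus and 84.8, 68.7 and 62.7 in bone, against 93.4, 109.6 and 103 in skin. Bone was below both others, and thymus and skin overlapped. It was 1.63-fold higher in thymus than in bone (0.71 ± 0.14 (SE), adjusted p = 0.00205) and 1.41-fold lower in bone than in skin (-0.50 ± 0.14 (SE), adjusted p = 0.0108), although with library size only it was 0.19 higher in bone than in skin and without bone 3 its adjusted p was 0.0534. Srebf2 had 89.4, 83.6 and 95.04 CPM in thymus and 94.8, 102 and 90.4 in bone, against 181, 211 and 133 in skin, with skin above both others, which overlapped. It was called lower than in skin in thymus (log2 -0.97, adjusted p = 0.000546) and in bone (log2 -0.87, adjusted p = 0.000892), and both calls were lost with library size only (adjusted p = 0.0858 and 0.359). Scap, the escort of both proteins, had 60.9 ± 1.48 CPM in thymus and 64.4 ± 9.098 in bone, against 62.8 ± 9.36 in skin (SD, n = 3). Its differences were within 0.08 of 0 under TMM, and with library size only it was 0.59 higher in thymus than in skin.

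Ratios between related genes within a library do not change with the scaling of libraries. In the deposited RPKM, which is per length of transcript, the ratio of Insig1 to Insig2 was 0.509 to 0.832 in thymus and 1.06 to 1.31 in bone, against 2.51 to 5.98 in skin, with no overlap. The ratio of Srebf1 to Srebf2 was 1.39 to 1.51 in thymus and 0.736 to 0.986 in bone, against 0.565 to 0.8400 in skin, so Srebf1 was the higher of the pair in each thymus library and the lower in each bone and skin library. Of 18 exact two-sided permutation tests on 6 such ratios, 16 gave p = 0.1, the smallest that 3 against 3 libraries allow (0.113 adjusted over the 18). The exceptions were bone against skin for Srebf1 to Srebf2 (exact p = 0.3) and for Fads1 to Fads2 (exact p = 0.4).

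**Figure D4:**
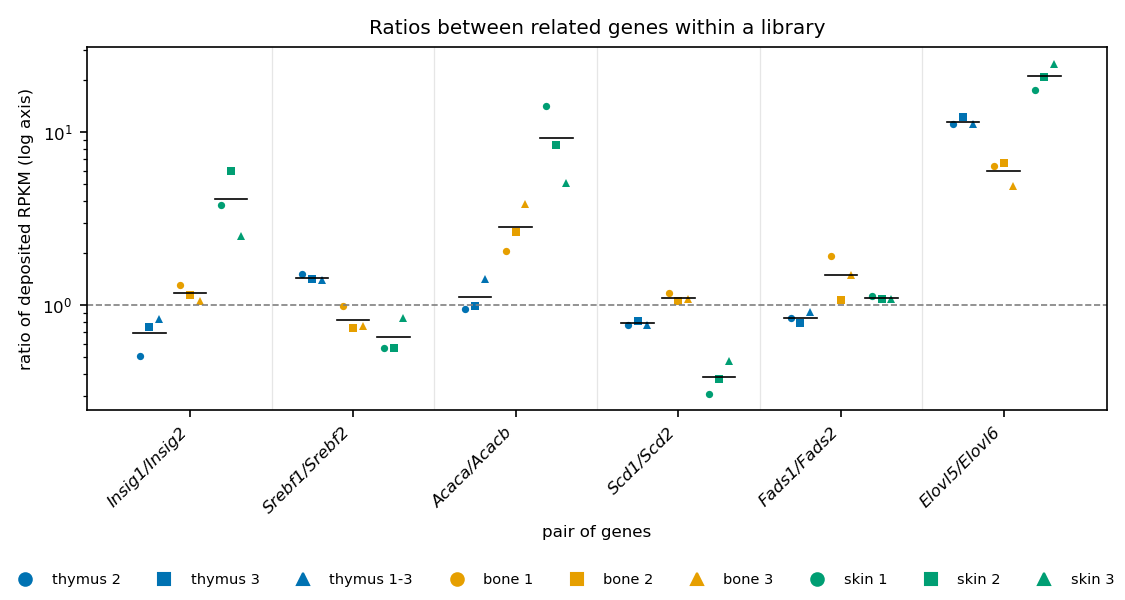
Ratio of deposited RPKM between related genes in each of the 9 libraries (log axis, dashed line at 1), with tissues in colour, libraries by symbol and tissue means as black lines. Insig1 to Insig2 and Acaca to Acacb are lowest in thymus and highest in skin without overlap, and Elovl5 to Elovl6 is lowest in bone and highest in skin.

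Among the genes of fatty acid synthesis, the acetyl-CoA carboxylases parted. Acacb, whose product sits at the outer mitochondrial membrane and restrains fatty acid entry for oxidation, was highest in thymus, with 24.4, 22.3 and 14.8 CPM there, 11.3, 8.68 and 6.62 in bone and 2.59, 3.71 and 4.96 in skin. The 3 tissues did not overlap. Acacb was 2.31-fold higher in thymus than in bone (1.21 ± 0.29 (SE), adjusted p = 0.00781), 5.46-fold higher in thymus than in skin (2.45 ± 0.31 (SE), adjusted p = 6.99e-05) and 2.36-fold higher in bone than in skin (1.24 ± 0.30 (SE), adjusted p = 0.00477). It was the 1 gene of the 32 at least 2-fold higher in thymus than in both others (4.05% of all genes) and the 1 at least 2-fold lower in skin than in both others (7.55% of all genes). Insig2 joined it in the latter class with library size only.

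Acaca, the cytosolic carboxylase that feeds fatty acid synthesis, had 24.7, 23.8 and 22.6 CPM in thymus and 24.6, 25.5 and 27.5 in bone, against 39.6, 33.8 and 27.1 in skin. Skin 3 lay within the bone range. It was called lower in thymus than in skin (-0.50 ± 0.16 (SE), adjusted p = 0.026), but was 0.13 higher there with library size only, and lost its call without skin 1, skin 2 or any thymus library (adjusted p = 0.0545 to 0.126). Of its 99-base windows 43.0% occur in Gm5182, so its count is uncertain. The ratio of Acaca to Acacb in RPKM was 0.954 to 1.41 in thymus and 2.05 to 3.83 in bone, against 5.12 to 14.3 in skin.

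Acly, which supplies cytosolic acetyl-CoA from citrate, had 115, 128 and 107 CPM in thymus and 180.0, 155 and 168 in bone, against 258, 238 and 195 in skin, with no overlap between tissues. It was lower in thymus than in skin (log2 -0.98, adjusted p = 0.000209), lower in thymus than in bone (log2 -0.52, adjusted p = 0.0145, and 0.0593 without bone 1) and lower in bone than in skin (log2 -0.46, adjusted p = 0.0179), the last turning to 0.22 higher with library size only and lost without bone 2, bone 3, skin 1 or skin 2 (adjusted p = 0.0501 to 0.0704). Fasn, fatty acid synthase, had 104, 109 and 129 CPM in thymus and 131, 135 and 144 in bone, against 219, 300.2 and 147 in skin, with skin above all others. It was lower in thymus (log2 -0.96, adjusted p = 0.00392) and in bone (log2 -0.70, adjusted p = 0.0178) than in skin, and neither call held with library size only (adjusted p = 0.185 and 0.993). Without bone 1, bone 2 or skin 2 the bone call was also lost (adjusted p = 0.0516 to 0.0926), and without skin 2 the difference was -0.42.

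Among the desaturases, Scd2, Fads1 and Fads2 were the 3 genes at least 2-fold lower in bone than in both others, where 3.86% of all genes were. In the deposited RPKM, Scd2 was the highest of the 32 genes in thymus (88.1 ± 7.46) and skin (112 ± 38.4), and Scd1 the highest in bone (47.9 ± 3.81, against 43.3 ± 3.91 for Scd2; mean ± SD, n = 3). The genes lie in 2 clusters on chromosome 19 in mm10, with Scd2 at 44293676-44306862 and Scd1 at 44394450-44407709, and with Fads2 at 10064164-10101503 and Fads1 at 10182888-10196872.

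Scd2, a stearoyl-CoA desaturase that makes oleate-type monounsaturated fatty acids, read 448, 439 and 536 CPM in thymus and 231, 251 and 217 in bone, against 1117, 981 and 554 in skin. The tissues did not overlap. Scd2 was 3.79-fold lower in bone than in skin (-1.92 ± 0.23 (SE), adjusted p = 3.63e-05), 2.03-fold higher in thymus than in bone (1.02 ± 0.22 (SE), adjusted p = 0.00398) and 1.86-fold lower in thymus than in skin (-0.90 ± 0.22 (SE), adjusted p = 0.00723). The last call was lost with library size only (adjusted p = 0.317). Scd1, its paralogue, had 307, 316 and 365 CPM in thymus and 244, 234 and 209 in bone, against 305, 324 and 234 in skin. Thymus lay above bone, and skin overlapped both. Scd1 was 1.44-fold higher in thymus than in bone (0.52 ± 0.15 (SE), adjusted p = 0.0201), a call lost without bone 2, bone 3 or thymus 1-3 (adjusted p = 0.0506 to 0.0802). The paralogues share few windows of 99 bases with other genes (2.7% for Scd1 and 0.915% for Scd2). The ratio of Scd1 to Scd2 in RPKM was 0.7704 to 0.8100 in thymus and 1.06 to 1.18 in bone, against 0.308 to 0.477 in skin.

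Fads1 and Fads2, the delta-5 and delta-6 desaturases of polyunsaturated fatty acids, were lowest in bone. Fads1 read 120.2, 120.3 and 179.6 CPM in thymus and 68.2, 71.3 and 63.3 in bone, against 275, 292 and 161 in skin. Bone was clear of both other tissues, and skin 3 fell within the thymus range. Fads1 was 3.59-fold lower in bone than in skin (-1.84 ± 0.23 (SE), adjusted p = 6.00e-05) and 2.07-fold higher in thymus than in bone (1.05 ± 0.22 (SE), adjusted p = 0.00392). Its difference between thymus and skin (-0.79 ± 0.22 (SE), adjusted p = 0.0154) was lost without skin 1, skin 2, thymus 2 or thymus 3 (adjusted p = 0.0539 to 0.0693). With library size only that difference was -0.17 (adjusted p = 0.535). Fads2 read 59.9, 63.98 and 78.2 CPM in thymus and 13.8, 28.1 and 17.6 in bone, against 99.3, 109.8 and 60.97 in skin. Again bone was below every other library, and thymus and skin overlapped. Fads2 was 4.53-fold lower in bone than in skin (-2.18 ± 0.29 (SE), adjusted p = 0.000127) and 3.39-fold higher in thymus than in bone (1.76 ± 0.28 (SE), adjusted p = 0.000775). The ratio of Fads1 to Fads2 was 0.787 to 0.914 in thymus and 1.07 to 1.93 in bone, against 1.09 to 1.12 in skin.

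Of the elongases, Elovl6 was highest in bone and Elovl5 in skin. Elovl6, which extends palmitate to stearate, read 14.8, 13.7 and 16.1 CPM in thymus and 34.5, 32.9 and 42.6 in bone, against 23.1, 19.8 and 13.8 in skin. Bone was above both others, which overlapped. Elovl6 was 2.47-fold lower in thymus than in bone (-1.30 ± 0.20 (SE), adjusted p = 0.000373) and 1.94-fold higher in bone than in skin (0.96 ± 0.20 (SE), adjusted p = 0.00186). Elovl5, which extends polyunsaturated fatty acids, had 77.7, 79.6 and 83.6 CPM in thymus and 104, 104 and 98.4 in bone, against 192, 195 and 162 in skin, with no overlap. It was lower in thymus than in skin (-1.19 ± 0.12 (SE), adjusted p = 1.22e-05) and lower in bone than in skin (-0.84 ± 0.12 (SE), adjusted p = 0.000123), the latter lost with library size only (adjusted p = 0.295). The small difference between thymus and bone (-0.35 ± 0.12 (SE), adjusted p = 0.0406) was lost without any of the bone libraries, skin 2, thymus 2 or thymus 3 (adjusted p = 0.0542 to 0.125). The ratio of Elovl5 to Elovl6 was 11.1 to 12.3 in thymus and 4.903 to 6.69 in bone, against 17.7 to 25.1 in skin. Without thymus 1-3, or with library size only, Fads2 was the 1 gene of the 32 left at least 2-fold lower in bone than in both others.

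Beside these differences, 10 sebocyte markers summed to 204 to 256 CPM in skin, 93.5 to 126 in thymus and 87.9 to 92.5 in bone, with Awat1 at 0 in every library and Fa2h at 0 in thymus and bone, and this list also holds Soat1, described below. The 11 keratinocyte markers summed to 84.5 to 257 CPM in skin, 27.8 to 34.9 in thymus and 6.38 to 10.5 in bone, and 12 immediate-early and heat shock genes to 18779 to 22915, 5360 to 7030 and 12137 to 13939 CPM in the same order. The 12 markers of cycling cells were highest in bone (466 to 609.7 CPM, against 183 to 249 in thymus and 106 to 372 in skin). The 8 endothelial markers summed to 251 to 348 CPM in skin, 69.8 to 106 in thymus and 60.4 to 79.2 in bone, and 10 Schwann cell markers to 575 to 666, 390 to 472 and 370 to 437 CPM in the same order. Single endothelial markers went both ways, with 2 called higher and 2 lower in thymus against skin, and 2 and 2 in bone against skin. Of the Schwann cell markers, 0 were higher and 5 lower in thymus against skin, and 2 higher and 2 lower in bone against skin. Among the 10 sebocyte markers, 0 were higher and 3 lower in thymus against skin, and 1 higher and 3 lower in bone against skin. The 8 preadipocyte markers summed to 1211 to 1341 CPM in thymus, 710 to 940 in skin and 329 to 462 in bone, although 7 of them were lower and 1 higher in thymus than in skin. The part of these lists in the levels of the synthesis genes was not tested.

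Other genes of sterol synthesis, 7 of 8 tested, gave 5 lower and 1 higher in thymus against skin, 3 lower and 1 higher in bone against skin and 2 lower in thymus against bone. Of all genes, 18.3% were lower and 19.3% higher in thymus against skin, and 23.4% lower and 23.7% higher in bone against skin. In thymus against bone, 16.1% of all genes were lower. Sc5d, the lathosterol desaturase gene, was at 29.7 to 49.5 CPM in skin, 15.02 to 18.6 in thymus and 13.4 to 16.97 in bone, and Acat1, a mitochondrial thiolase, at 161 to 205, 85.5 to 93.1 and 66.4 to 77.1 CPM in the same order. The lamin B receptor gene Lbr, whose product also reduces sterols, was highest in bone (51.4 to 70.7 CPM, against 14.2 to 23.2 in thymus). Besides these, Sc4mol was lower in thymus than in skin, and Ggps1 was higher in thymus than in skin. The 3 lower in bone than in skin became 5 without skin 3, and the 1 higher became 2 without bone 1. Names outside the 2 of each list with the smallest p in a comparison were chosen after their values were seen, here and below.

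The other genes of SREBP control, 8 in all, gave 3 higher in thymus against bone, 2 higher in thymus against skin, and 1 higher and 2 lower in bone against skin. The shares of all genes were 16.5%, 19.3%, 23.7% and 23.4% in the same order. Erlin2 and the site-1 protease gene Mbtps1 were higher in thymus than in bone (log2 0.65, adjusted p = 0.00154, and log2 0.56, adjusted p = 0.00946) and lower in bone than in skin. Rnf139, a ubiquitin ligase gene, was higher in thymus than in either other tissue, and the site-2 protease gene Mbtps2 was lower in skin than in either other tissue. No others were called, and with library size only 6 were higher in thymus and 5 higher in bone than in skin, with none lower. The count of 2 higher in thymus than in skin became 0 without skin 2, thymus 2 or thymus 3, and 1 without skin 1, skin 3 or thymus 1-3.

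Genes of sterol uptake, storage and efflux were called in both directions. Of 16, 6 were higher and 3 lower in thymus against bone, 4 higher and 5 lower in thymus against skin, and 3 higher and 9 lower in bone against skin. The shares of all genes were 16.5% and 16.1%, 19.3% and 18.3%, and 23.7% and 23.4% in the same order. Under library size scaling the counts against skin became 7 higher and 2 lower in thymus and 7 higher and 1 lower in bone. The 3 higher in bone than in skin became 0 without bone 1 or bone 3, and 1 without bone 2, skin 1, skin 2 or thymus 3. Nr1h3, which encodes liver X receptor alpha, read 69.3, 52.1 and 67.4 CPM in thymus and 4.34, 5.74 and 4.64 in bone, against 6.49, 11.4 and 11.6 in skin. It was 12.8-fold higher in thymus than in bone (3.68 ± 0.25 (SE), adjusted p = 9.35e-07) and 6.41-fold higher than in skin (2.68 ± 0.24 (SE), adjusted p = 4.84e-06). Apoe, a lipoprotein component and liver X receptor target, read 824, 794 and 742 CPM in thymus and 123, 97.7 and 85.3 in bone, against 107, 208 and 172 in skin. Abcg1, a sterol exporter, read 76.6, 69.5 and 65.7, 10.7, 9.47 and 7.41 and 2.55, 3.74 and 8.11 CPM in the same order, and the lysosomal lipase gene Lipa 140.4, 142 and 139, 87.6, 71.1 and 76.8 and 72.2, 77.5 and 91.4. For these 4 genes each thymus library was above every bone and skin library, and they were the 4 higher in thymus than in skin.

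The genes of this list with higher levels in skin included Scarb1, a lipoprotein receptor gene, at 18.4, 17.8 and 22.2 CPM in thymus and 16.2, 20.6 and 20.6 in bone, against 52.2, 59.2 and 27.7 in skin. It was 2.42-fold lower in bone than in skin (-1.27 ± 0.25 (SE), adjusted p = 0.00127) and 2.38-fold lower in thymus (-1.25 ± 0.25 (SE), adjusted p = 0.00182). Soat1, which esterifies cholesterol, was at 26.7 to 29.3 CPM in bone, 34.4 to 36.4 in thymus and 41.1 to 46.6 in skin, and was 1.58-fold lower in bone than in skin (-0.66 ± 0.12 (SE), adjusted p = 0.0009). Skin 3 was again the lowest skin library for Scarb1. The other calls in thymus against bone were Soat1 and Mylip, higher in thymus, and Lrp1, Npc1 and Soat2, lower in thymus. Against skin, Lrp1, Npc1 and Npc2 were lower in thymus. In bone against skin, Lrp1, Soat2 and Abcg1 were higher in bone.

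**Figure D5:**
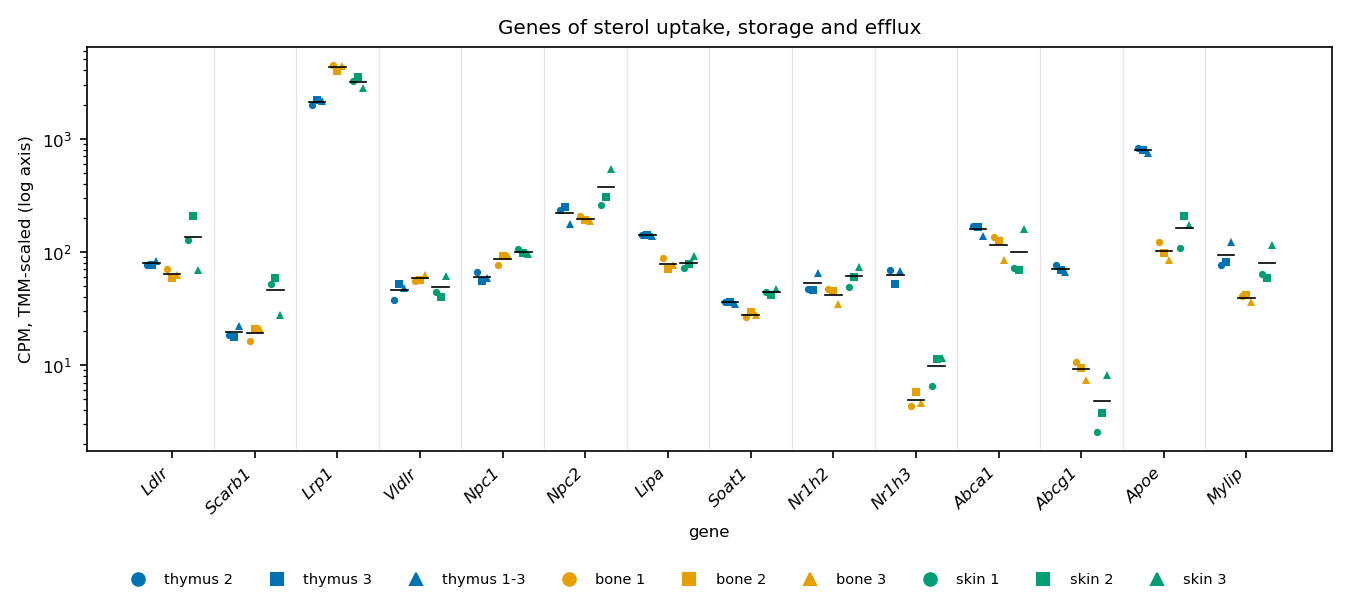
TMM-scaled CPM (log axis) of 14 of the 16 genes of sterol uptake, storage and efflux in the 9 libraries, with tissues in colour, libraries by symbol and tissue means as black lines; genes with libraries at or near 0 are left out. Nr1h3, Abcg1, Apoe and Lipa show all thymus points above all others, and Scarb1 shows skin above thymus and bone.

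Of 14 other genes of fatty acid synthesis and activation, 3 were higher and 2 lower in thymus against bone, 1 higher and 3 lower in thymus against skin, and 2 higher and 4 lower in bone against skin. Among all genes the shares were 16.5% and 16.1%, 19.3% and 18.3%, and 23.7% and 23.4% in the same order. Slc25a1, the mitochondrial citrate carrier gene, and Acss2, which makes cytosolic acetyl-CoA from acetate, followed the order skin, thymus, bone, at 51.7 to 57.8, 35.2 to 47.3 and 22.5 to 27.1 CPM for Slc25a1 and 20.4 to 28.7, 12.5 to 17.1 and 9.49 to 10.8 for Acss2. Both were called in all 3 comparisons. Me1, a source of NADPH, was lower in thymus than in skin (log2 -0.92, adjusted p = 0.00636). The acyl-CoA synthetase gene Acsl1 was highest in bone (27.2 to 30.9 CPM, against 6.66 to 10.2 in thymus and 9.57 to 16.3 in skin), as was Acsl4, while Acsl5 was lowest there (63.5 to 81.2 CPM, against 122 to 148 and 108 to 117). The calls left were Mid1ip1, higher in thymus than in skin, and Mlx, lower in bone than in skin. Scaling by library size gave, against skin, 6 higher and 0 lower in thymus and 3 higher and 2 lower in bone. Mid1ip1 was not called in thymus against skin without skin 1 or thymus 2.

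Of 15 other genes of desaturation and elongation, 3 were lower in thymus than in bone, 7 lower and 1 higher in thymus against skin, and 4 lower and 2 higher in bone against skin. Among all genes the shares were 16.1%, 18.3% and 19.3%, and 23.4% and 23.7% in the same order. Elovl7 was highest in bone at 3.83, 6.61 and 11.04 CPM, against 0.252, 1.12 and 0.696 in thymus and 1.495, 1.76 and 2.56 in skin. The dehydratase gene listed as Ptpla was lowest in thymus (4.24 to 5.84 CPM, with 7.33 to 14.9 for bone and 12.5 to 22.1 for skin), and Ptplad2 was at 28.2, 20.96 and 55.6 CPM in skin, with skin 3 the highest, against 10.4 to 13.5 in thymus and 5.96 to 9.09 in bone. Tecr, the last enzyme of the elongation cycle, was at 125 to 179 CPM in skin, 59.4 to 115 in thymus and 62.95 to 77.7 in bone. Elovl3, with 0 reads in thymus and in bone 2, was called lower in thymus than in both others, Scd3 was lower in thymus than in skin, and Elovl1 and Elovl4 were lower in thymus and in bone than in skin. Ptplb was higher in both than in skin, and Elovl7 was higher in bone than in skin. Scaling by library size gave, against skin, 4 higher and 5 lower in thymus and 5 higher and 1 lower in bone. The 3 lower in thymus than in bone became 1 without bone 1 or thymus 2, and the 7 lower in thymus than in skin became 3 without skin 2. In bone against skin, the 2 higher and 4 lower became 0 and 2 without skin 1, 1 and 2 without bone 3, and 1 and 3 without bone 1, bone 2, skin 2 or skin 3.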

How the data were processed

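RNA from SCA1-positive sorted mesenchymal cells was sequenced in 9 libraries, 3 each from thymus, bone and skin, and samples were grouped by the labelled tissue. CASAVA 1.8.2 and HTSeq 0.5.4 are listed, with the mm10 build, by the submitters' processing notes; which aligner, annotation and strand setting were used is not stated there. The deposited counts are whole reads for each gene symbol, and 5 summary lines (5.05 to 14.8% of reads) entered neither library sizes nor tests. The deposited RPKM tables hold the authors' RPKM with mm10 coordinates, used for levels between genes and for ratios. The signal column of the deposited RPKM tables, a sum of read bases, was used only as a check.

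The test was that of edgeR 4.0.16 under R 4.3.3 (quasi-likelihood, robust, TMM factors, filterByExpr by tissue, 1 fit of 9 libraries, Benjamini-Hochberg over 15635 genes, threshold 0.05). The SE is the size of the log2 fold change divided by the square root of F. Genes apart in a tissue passed against both others in 1 direction by at least 2-fold. On simulated counts of 15350 genes for thymus against bone, 51% of genes changed 2-fold and 74% of genes changed 4-fold were called, and 0.046% of unchanged genes. Replicates within a tissue differed far beyond counting noise, and each was counted as 1 sample. That spread may be technical, so it does not show that the libraries are independent. Same-numbered libraries of different tissues did not deviate together (r = -0.03 to 0.08 over 7 pairs), so no block was used.

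Other settings tried were scaling (RLE, upper quartile, or library size only), filtering (none, or 1 CPM in at least 3 libraries), DESeq2 1.42.0, limma 3.58.1 on log2 of RPKM plus 1 or plus 0.1 (RPKM of 1 or more in 3 libraries, or no filter), a replicate block, only the 2 tissues compared, each library left out and, chosen after seeing the data, library sizes without Col1a1, Col1a2 and Col3a1. The 32 genes and the other lists were chosen with earlier results of these data known. Values in every library are given for genes apart in a tissue and for up to 8 per direction with the largest difference in each comparison, and up to 2 genes of each other list with the smallest p are named. Promoters are RefSeq's for GRCm38.p6. Windows of 99 bases shared between genes were counted in GENCODE vM21 transcripts. Some genes of the other lists are not reported here.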

Additional observations from a re-analysis of the deposited data

How the results depend on the processing

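Over 21 alternatives, the calls kept throughout were 11 of 17 in thymus against bone (Hmgcs1, Sqle, Hsd17b7, Insig1, Insig2, Srebf1, Acacb, Scd2, Elovl6, Fads1 and Fads2), 11 of 22 in thymus against skin (Hmgcs1, Sqle, Fdps, Fdft1, Cyp51, Pmvk, Insig1, Insig2, Stard4, Acacb and Elovl5) and 8 of 19 in bone against skin (Ebp, Mvk, Insig2, Acacb, Scd2, Elovl6, Fads1 and Fads2). RLE factors and a filter of 1 CPM changed the call of none of the 96 gene and comparison pairs, and DESeq2 added 1 (Acat2, thymus against skin). These settings did move genes across the 2-fold line. Scd2 left the genes apart as lower in bone in each of them. Mvk joined those higher in skin under RLE factors and DESeq2, and Cyp51 left those with the filter of 1 CPM.

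Settings with no scaling for composition (library size only, limma on RPKM) and the collagen-free sizes changed the counts against skin most. Thymus against skin gave 5 higher and 9 lower with library size only, 5 and 11 with limma on RPKM plus 1 or plus 0.1, 5 and 10 without its filter, and 4 and 14 with library sizes lacking 3 collagens. Bone against skin gave 6 higher and 5 lower, 6 and 6, 5 and 5, 6 and 6, and 5 and 9 in the same settings. Genes higher in skin than in both others by at least 2-fold numbered 0 with library size only and with each limma setting, and 1 without the collagens. Genes lower in skin than in both others numbered 2 with library size only, limma with 0.1 and the collagen-free sizes. Genes higher in bone than in both others numbered 2 with library size only and limma with 0.1, and 1 with the other limma settings and the collagen-free sizes. Genes lower in bone numbered 1 with upper quartile factors, library size only and the collagen-free sizes. Limma on RPKM plus 1, with or without the filter, left 0 genes apart as higher and 1 as lower in thymus.

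Among values called in at least 1 of the settings compared, those that turned sign under library size only were 0.59 for Scap and 0.13 for Acaca in thymus minus skin, and 0.017 for Dhcr7, 0.082 for Nsdhl, 0.52 for Insig1, 0.19 for Srebf1 and 0.22 for Acly in bone minus skin. Under limma with 1, with 0.1 and without the filter, the called values that turned were 0.48, 0.52 and 0.48 for Scap, 0.0474, 0.0674 and 0.0474 for Acaca, 0.0436, 0.0455 and 0.0436 for Srebf1, and 0.10, 0.11 and 0.10 for Acly. The collagen-free sizes turned no called value. Called or not, differences below 0 in thymus minus skin numbered 28 of the 32 genes with TMM, 20 with library size only, 26 with the collagen-free sizes, 19 of 31 with limma plus 1 or plus 0.1 and 20 of 32 without its filter. In bone minus skin they numbered 25, 13, 19, 16 and 16 in the same order.

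The labels share replicate numbers, and the fit with a replicate block gave 5 higher and 6 lower in thymus against bone, 2 and 17 in thymus against skin and 3 and 15 in bone against skin. Thymus 1-3 shares its label with no other library, so the block took up that library whole. Thymus was then compared through thymus 2 and thymus 3 alone, and the counts do not show the effect of shared numbers by itself. For the other lists, the block left no gene higher in thymus than in skin for sterol synthesis, SREBP control, fatty acid synthesis and desaturation and elongation. It left 2 uptake and efflux genes lower in thymus than in skin and none higher in bone than in skin. In thymus against bone it left 1 gene higher for fatty acid synthesis and 1 lower for desaturation and elongation. Leaving out a library gave 5 to 7 higher and 7 to 11 lower in thymus against bone, 2 higher and 15 to 22 lower in thymus against skin, and 3 to 4 higher and 11 to 22 lower in bone against skin. Genes apart then numbered 2 to 4 lower and 1 higher in thymus, 1 to 3 lower and 0 to 1 higher in bone, and 2 to 8 higher and 1 lower in skin. The highest count in skin came without skin 3 (8), followed by thymus 1-3 (6), and the lowest in bone without thymus 1-3 (1). The cause of these changes was not tested. Depth limits Idi1, with 2 to 249 reads per library.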
